A study of Mus musculus with 8 samples.

Results

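The transcripts of 10 genes of the piRNA pathway, Piwil2, Piwil4, Mael, Tdrd1, Tdrd5, Tdrd7, Tdrd9, Mov10l1, Asz1 and Gtsf1, were followed in RNA that came down with the RNA-binding protein DAZL from fetal mouse gonads. The members were chosen as a set of genes with known roles in the pathway and found on the array by gene name, or by an older name matched through the accession of the probe, as for Gtsf1, which the array calls 1700006H03Rik. They had 15 probes, and are 10 of the 19682 genes that could be named on the array. The samples were gonads of E14.5 embryos of strain MCH, used in lots of 50 pooled XX or XY gonads, with no transgene, mutation or treatment given for any group. From each lysate 5% was kept as the input, and the rest was precipitated with an antibody against DAZL bound to beads (RNA immunoprecipitation, IP). The 4 groups, XX input, XX IP, XY input and XY IP, held 2 arrays each. For labelling with Cy3, 50 ng of input and 1 ng of precipitated RNA were amplified. No IP with a control antibody was analysed here, so each enrichment was relative to the input alone.

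PIWI-interacting RNAs (piRNAs) are small RNAs of the germ line that guide PIWI proteins to the transcripts of transposons. In the mouse fetal testis, PIWIL2 (MILI) slices transposon RNA in cytoplasmic granules, and PIWIL4 (MIWI2) carries piRNAs into the nucleus, where transposon copies become methylated in prospermatogonia. Tudor domain proteins hold the PIWI proteins in these granules by their methylated arginines, and DAZL is a germ cell protein that binds messenger RNAs and promotes their translation.

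The values below are log2 signals relative to the 75th percentile of the same array, called relative signals, so 0 stands for the 75th percentile. Between 16713 and 20391 probes were well above background on each input array, and between 6068 and 9468 on each IP array. The lowest relative signal that counted as well above background lay between -3.59 and -2.34 on the input arrays and between 0.03 and 1.02 on the IP arrays, so a dim transcript could be measured in an input and not in the matching IP. Over the 18265 probes tested, the 2 arrays of a group differed by a median of 0.19 (XX) and 0.17 (XY) in the inputs and by 0.73 and 0.83 in the IPs. Precision is limited by having 2 arrays a group, and the labels do not say whether the replicates were separate lots, so the p-values measure the spread between these samples, which may be technical. The fit took 1 variance per probe over all 4 groups. The wider spread of the IPs thus also enters the standard errors and p-values between inputs. Both probes of Dazl, the target of the antibody, were higher in the IPs. The difference was 6.45-fold (adjusted p = 0.000308) and 8.53-fold (adjusted p = 0.00016) in XX, and 4.18-fold (adjusted p = 0.00201) and 7.63-fold (adjusted p = 0.000261) in XY.

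Every member had a probe that was well above background on all 4 input arrays. Of the 15 probes, 11 were above background on both arrays of the XX input and of the XY input (73.3% each), 7 on both arrays of the XX IP (46.7%) and 10 on both arrays of the XY IP (66.7%). Over all 41101 probes kept, the shares were 40% and 41.8% in the XX and XY inputs and 13.6% and 13.4% in the IPs. The same 11 probes entered the tests, 1 for each member and both probes of Gtsf1. Piwil2, Mael, Tdrd1, Tdrd5, Tdrd7 and Gtsf1 were above background on all 8 arrays with 7 probes.

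The other 4 probes were too dim for the tests. They are second probes of Piwil4 (A_51_P299795, mm8 chr9:14446770-14446829), Tdrd1 (A_51_P478238, chr19:56919230-56919711), Tdrd5 (A_52_P390091, chr1:158114087-158114146) and Mov10l1 (A_52_P240424, chr15:88813465-88816211). The dim probes of Tdrd1, Tdrd5 and Mov10l1 lay 3930, 21741 and 68588 bases towards the 5′ end from the brighter probe of the same gene, and that of Piwil4 lay 5493 bases towards the 3′ end. The dim probe of Tdrd5 was not above background on any array. The dim probe of Piwil4 was above background on 1 array alone, the first XY IP array, with a relative signal of 4.97 (213.8 scanner units) against -1.92 (3.48 scanner units) on the second. These 2 arrays of 1 group gave a bright spot and a background spot, and no value is drawn from the pair. Those of Tdrd1 and Mov10l1 were above background on 1 XY input array and on 1 array of each input, respectively.

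**Figure D1:**
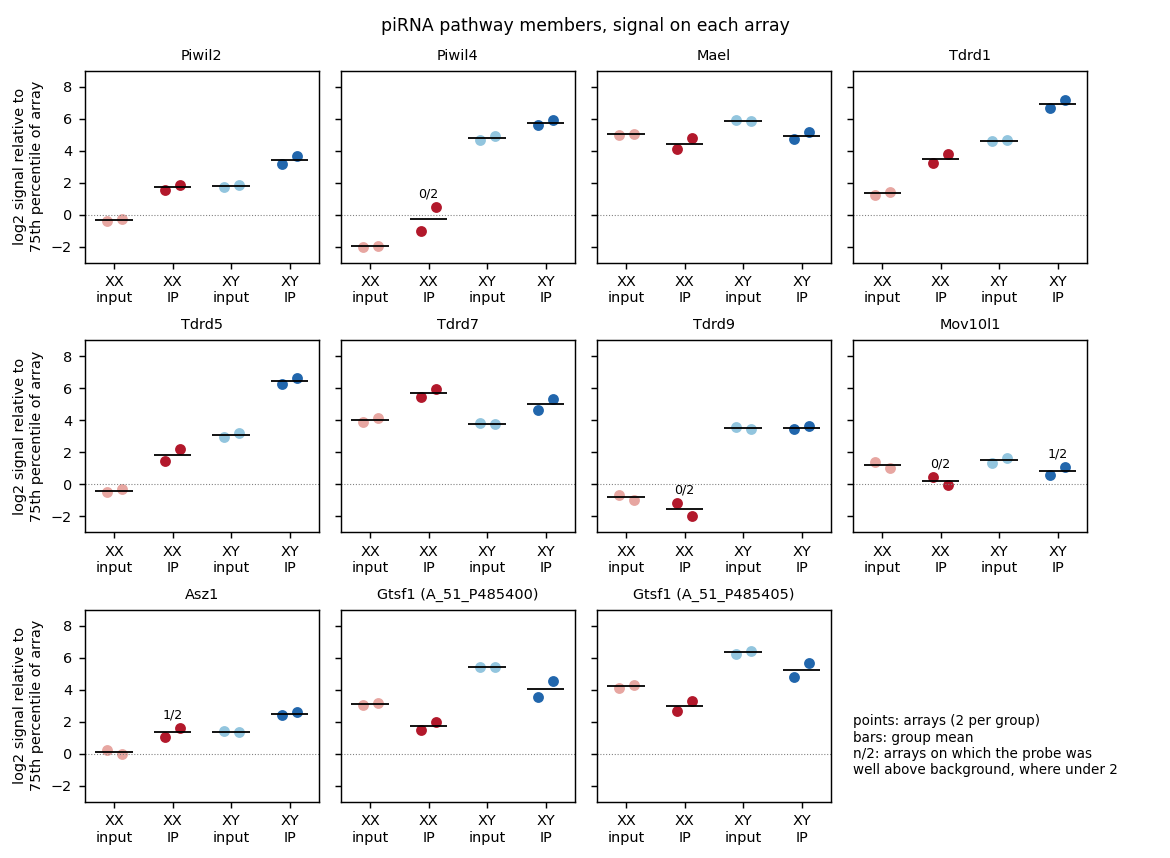
Relative signal (log2, scaled to the array's 75th percentile) of the 11 tested probes on each of the 8 arrays, with points for arrays, bars for group means and the number of arrays above background where it was under 2. Tdrd1 and Tdrd5 step up from input to IP in both sexes, Gtsf1 steps down, and Piwil4 and Tdrd9 sit far lower in the XX than in the XY inputs.

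The first comparison asked which members were enriched in the DAZL precipitate. A probe was called at an adjusted p under 0.05 and a difference of at least 4-fold. In XX, 3 of the 11 probes were called higher in the IP (Piwil2, Tdrd1 and Tdrd5) and 0 were called lower, while 14.1% of all tested probes were called higher and 9.89% lower. In XY, 2 of 11 were called higher (Tdrd1 and Tdrd5) and 0 lower, against 10.2% and 7.67% of all tested probes. The counts of so few members were not tested against these shares. At the adjusted p alone, 6 probes were higher and 2 lower in XX (25.9% and 22.8% of all tested probes), and 5 were higher and 1 lower in XY (20.2% and 20.6%). The 6 include Piwil4, whose XX IP was not above background on either array. The median log2 difference of the 11 probes was 1.23 in XX and 0.98 in XY, with 0.09 and -0.03 over all tested probes. Over the 8 probes measured on both sides in XX it was 1.46.

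Markers of cell types moved in the same comparison. Of the 6 germ cell markers, Kit was 7.44-fold and 8.68-fold higher in the XX and XY IPs (adjusted p = 0.000291 and 0.000273) and Dppa3 5.70-fold and 7.54-fold (adjusted p = 0.00136 and 0.000829). Ddx4 and Dazl, given elsewhere, were higher as well. In XY, Pou5f1 gave 0.06 (adjusted p = 0.955) and Nanos3 -0.74 (adjusted p = 0.223), the latter not above background in the IP. Neither was above background in the XX IP. The summed level of all 6 is carried by bright probes, in the XX IPs foremost Dazl (8.23 and 7.83). It ran from 71.9 to 80.8 times the 75th percentile in the XX inputs and from 392 to 428 in the XX IPs. In XY it ran from 105 to 137 and from 557 to 862. The meiotic markers Stra8 (4.33-fold and 7.28-fold, adjusted p = 0.00438 and 0.00112) and Sycp3 (6.71-fold and 5.23-fold, adjusted p = 0.000243 and 0.000748) were also higher, while Rec8 was 2.20-fold lower in the XX IP (adjusted p = 0.031) with -0.36 in XY (adjusted p = 0.481), and Dmc1 gave 0.81 in XX (adjusted p = 0.161) and was not above background in XY. Rec8 in the XY IP and Dmc1 in the XX IP were above background on 1 of 2 arrays. The erythroid marker Hba-a1 was 5.51-fold and 4.73-fold lower in the IPs (adjusted p = 0.00301 and 0.00662), the ovarian supporting marker Fst 6.23-fold lower in XX (adjusted p = 0.00181), and the Leydig marker Cyp17a1 16.4-fold lower in XY (adjusted p = 9.01e-05), the last 2 above background on 1 IP array. Other somatic markers fell less or not at all. Hbb-y was 3.47-fold lower in XX (adjusted p = 0.0177) and 2.21-fold lower in XY (adjusted p = 0.114). The Sertoli marker Sox9, above background on both arrays of each XY group, gave 0.01 in XY (adjusted p = 0.985). The part of such differences between cell types in the enrichment of the members was not tested.

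Tdrd5, whose protein is a Tudor domain component of the germ cell granules, had the widest difference between IP and input among the members. Its probe A_52_P36065 (mm8 chr1:158092346-158092405, minus strand) had relative signals of -0.51 and -0.29 on the XX input arrays and 1.43 and 2.21 on the XX IP arrays. On the XY arrays it gave 2.92 and 3.19 in the inputs and 6.28 and 6.66 in the IPs. The IP arrays were above the input arrays in both sexes, with no overlap. Tdrd5 was 4.67-fold higher in the XX IP (log2 difference 2.22 ± 0.42, SE, n = 2 against 2 arrays, adjusted p = 0.0013) and 10.7-fold higher in the XY IP (3.41 ± 0.42, adjusted p = 0.000165).

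Tdrd1 encodes the Tudor protein that binds PIWIL2 in the cement between mitochondria. Its probe A_52_P48218 (mm8 chr19:56923160-56923219, plus strand) read 1.24 and 1.42 in the XX inputs, 3.20 and 3.80 in the XX IPs, 4.58 and 4.65 in the XY inputs and 6.69 and 7.19 in the XY IPs. Here too both IP arrays lay above both input arrays in each sex. The enrichment was 4.51-fold in XX (log2 difference 2.17 ± 0.41, adjusted p = 0.00125) and 5.01-fold in XY (2.32 ± 0.41, adjusted p = 0.00122).

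Among the PIWI genes, Piwil2 was measured on all 8 arrays and Piwil4 was not. Piwil2 (A_51_P242967, mm8 chr14:69107770-69107829, minus strand) read -0.37 and -0.25 in the XX inputs, 1.55 and 1.86 in the XX IPs, 1.75 and 1.86 in the XY inputs and 3.17 and 3.69 in the XY IPs. The groups did not overlap within either sex. The difference was 4.05-fold in XX (2.02 ± 0.39, adjusted p = 0.00159), just past the 4-fold limit, and 3.08-fold in XY (1.62 ± 0.39, adjusted p = 0.00705), below it. Without the first XX input array the XX difference was 1.96 and without the second XX IP array 1.86, both under the limit. The second XX IP array also decided Tdrd1 and Tdrd5 in XX, which without it differed by 1.87 and 1.83, so that 0 members were then called higher in XX.

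For Piwil4 (A_52_P14778, mm8 chr9:14452263-14452322, minus strand) the relative signals were -2.01 and -1.96 in the XX inputs and -1.05 and 0.45 in the XX IPs, the latter not well above background on either array. The XX input thus measured a level that the XX IP arrays could not, and no fold is given for it. In XY the probe was bright, with 4.67 and 4.89 in the inputs and 5.61 and 5.91 in the IPs. The XY IP arrays lay above the inputs, but the difference of 0.98 ± 0.49 did not pass the test (adjusted p = 0.13). With a common floor for dim signals the same difference passed (adjusted p = 0.0122). With normexp background correction and outlying backgrounds replaced it was -1.07 and passed as lower in the IP (adjusted p = 0.0194), so its direction depended on the processing.

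Tdrd7 and Asz1 passed the adjusted p in both sexes below 4-fold. Tdrd7, a Tudor domain gene of the germ cell granules (A_51_P271835, mm8 chr4:46055712-46055771, plus strand), read 3.91 and 4.11 in the XX inputs, 5.46 and 5.92 in the XX IPs, 3.82 and 3.76 in the XY inputs and 4.65 and 5.32 in the XY IPs. Its difference was 3.21-fold in XX (1.68 ± 0.41, adjusted p = 0.00556) and 2.29-fold in XY (1.20 ± 0.41, adjusted p = 0.0354). The IP arrays lay above the inputs in both sexes. Asz1, which encodes a protein anchored in the outer mitochondrial membrane (A_52_P346225, mm8 chr6:18005508-18021991, minus strand), read 0.20 and -0.01 in the XX inputs, 1.03 and 1.62 in the XX IPs, 1.40 and 1.36 in the XY inputs and 2.40 and 2.60 in the XY IPs. Of its XX IP arrays, 1 of 2 rose above background. The difference was 2.35-fold in XX (1.23 ± 0.39, adjusted p = 0.0224) and 2.17-fold in XY (1.12 ± 0.39, adjusted p = 0.0399).

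Gtsf1, a small zinc finger protein that works with PIWI proteins, lay the other way. The probe A_51_P485400 (mm8 chr15:103237713-103248011, minus strand) read 3.03 and 3.17 in the XX inputs against 1.46 and 2.01 in the XX IPs, and 5.41 on both XY input arrays against 3.53 and 4.56 in the XY IPs. The probe A_51_P485405 (mm8 chr15:103230540-103232849, minus strand) read 4.08 and 4.32 in the XX inputs, 2.69 and 3.28 in the XX IPs, 6.25 and 6.42 in the XY inputs and 4.82 and 5.65 in the XY IPs. With both probes and in both sexes the IP arrays were below the input arrays. The first probe was 2.58-fold lower in the IP in XX (-1.37 ± 0.44, adjusted p = 0.0232) and also in the XY gonads (-1.37 ± 0.44, adjusted p = 0.0279). The second was 2.32-fold lower in XX (-1.22 ± 0.43, adjusted p = 0.0345), while its difference of -1.10 ± 0.43 in XY had an adjusted p of 0.0598. None of these reached 4-fold.

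Mael, Mov10l1 and Tdrd9 passed no test of IP against input in the main setting. Mael, whose protein acts in the granules and in the silencing of transposons (A_51_P494751, mm8 chr1:168038127-168038186, minus strand), was bright throughout, with 4.98 and 5.06 in the XX inputs, 4.07 and 4.79 in the XX IPs, 5.88 and 5.83 in the XY inputs and 4.70 and 5.18 in the XY IPs. The IP arrays were the lower ones, with a log2 difference of -0.59 ± 0.41 in XX (adjusted p = 0.252). The XY value was -0.92 ± 0.41 (adjusted p = 0.0937). Mov10l1 encodes the RNA helicase that binds piRNA precursors (A_51_P418357, mm8 chr15:88882053-88882112, plus strand). It read 1.39 and 1.00 in the XX inputs and 1.35 and 1.65 in the XY inputs, and in the IPs 0.47 and -0.06 (XX) and 0.56 and 1.05 (XY), above background on 1 of these 4 arrays, the second XY one. Its XX input was at least 1.45-fold above its XX IP (adjusted p = 0.065), and the XY difference was -0.69 ± 0.41 (adjusted p = 0.201). Tdrd9, a Tudor protein with a helicase domain that partners PIWIL4 (A_51_P307589, mm8 chr12:112516499-112516558, plus strand), read 3.60 and 3.42 in the XY inputs and 3.47 and 3.61 in the XY IPs. These 4 arrays overlapped, and the difference was 0.02 ± 0.41 (95% interval -0.88 to 0.93, adjusted p = 0.967). In XX its inputs were at -0.67 and -0.96, and its IPs, at -1.16 and -1.99, were not above background.

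**Figure D2:**
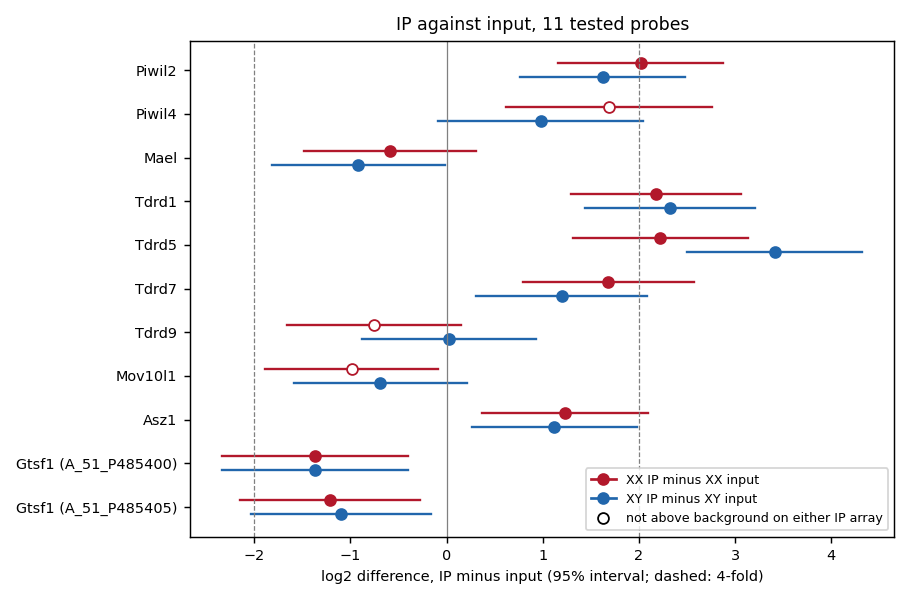
Log2 difference between IP and input for the 11 tested probes in XX and XY, with 95% intervals from the limma fit, dashed lines at 4-fold and open symbols where neither IP array was above background. Tdrd5 in XY, at 3.41, lies farthest right, both Gtsf1 probes lie left of 0, and the XX and XY intervals of each probe overlap.

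The second comparison asked whether the enrichment of a member differed between the sexes. The difference between the XX and the XY enrichment was tested itself, and passed for 0 of the 11 probes, where 3.3% of all tested probes passed at an adjusted p under 0.05. At an unadjusted p under 0.05 the count was also 0. Over the 8 probes measured on both sides in XX and XY, the differences ran from -1.19 to 0.49. Those of Piwil4, Tdrd9 and Mov10l1 rest on XX IPs that were not above background. Tdrd5 had the widest (-1.19 ± 0.59, enrichment greater in XY, adjusted p = 0.354), with a 95% interval from -2.48 to 0.10. Its size depended on the processing, with -2.615 under a common floor (adjusted p = 0.0511) and -0.59 with normexp (adjusted p = 0.808). For Piwil2, called in XX and not in XY, the difference was 0.39 ± 0.56 (adjusted p = 0.797), and for Tdrd7 it was 0.49 ± 0.58 (adjusted p = 0.752). These intervals leave room for differences of more than 2-fold, so a like enrichment in XX and XY is not shown. All XX arrays were on 1 slide and all XY arrays on another, so sex cannot be told apart from slide here or between the inputs.

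The third comparison set the XX inputs against the XY inputs, the levels from which the IPs started. In these 7 probes of 6 members the XX input was lower at an adjusted p under 0.05: Piwil2, Piwil4, Tdrd1, Tdrd5, Tdrd9 and both probes of Gtsf1. No member was higher. Over all tested probes 6.1% were lower and 5.87% higher in XX, and the median difference was 0.00, against -2.13 over the 11 member probes. In bulk gonads, fewer cells of a type and less RNA per cell cannot be told apart.

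Piwil4 differed most, 109-fold (log2 difference -6.77 ± 0.49, adjusted p = 7.11e-06), from -2.01 and -1.96 in the XX inputs to 4.67 and 4.89 in the XY inputs. Tdrd9 was 20.1-fold lower in XX (-4.33 ± 0.41, adjusted p = 4.6e-05). Tdrd5 was 10.9-fold (-3.45 ± 0.42, adjusted p = 0.000216) and Tdrd1 9.78-fold lower (-3.29 ± 0.41, adjusted p = 0.000249). These 4 genes encode a nuclear PIWI protein and 3 Tudor proteins. The Gtsf1 probes were 4.97-fold (-2.31 ± 0.44, adjusted p = 0.00446) and 4.39-fold lower (-2.13 ± 0.43, adjusted p = 0.00614), and Piwil2 was 4.34-fold lower (-2.12 ± 0.39, adjusted p = 0.00363). With the first XX input or the second XY input array left out, Piwil2 stayed near this size (-2.06 in each case) with an adjusted p of 0.0538 and 0.0572, and Gtsf1 (A_51_P485405) gave -2.01 and -2.05 with 0.0717 and 0.0685. The sizes depended on the treatment of dim signals. With normexp background correction they were -4.13 for Piwil4 and -2.49 for Tdrd9, both still called, and -1.93 for Tdrd5, -1.94 for Tdrd1, -1.05 for Gtsf1 and -0.98 for Piwil2, none of which passed (adjusted p = 0.091, 0.0858, 0.254 and 0.153). With the outlying local backgrounds replaced, 18 of them on the first XY input array, normexp called all of these, at -5.03 for Piwil4, -2.73 for Tdrd5 (adjusted p = 0.00385), -2.82 for Tdrd1 (adjusted p = 0.00528), -1.97 for Gtsf1 (adjusted p = 0.0253) and -1.53 for Piwil2 (adjusted p = 0.00915). With a common floor for dim signals Piwil4 gave -3.75, Tdrd9 -2.49 and Tdrd5 -2.03, still called, Tdrd1 kept its size, and Gtsf1 (-2.13, adjusted p = 0.0554) and Piwil2 (-0.78, adjusted p = 0.186) did not pass.

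Asz1 was 2.43-fold lower in XX (-1.28 ± 0.39) with an adjusted p of 0.0558, so it missed the threshold narrowly. Mael differed by -0.84 ± 0.41 (adjusted p = 0.248) and Mov10l1 by -0.30 ± 0.41 (adjusted p = 0.757), whose XX and XY arrays overlapped. These standard errors hold the spread of the IPs as well. The input arrays alone had SDs of 0.05 (XX) and 0.04 (XY) for Mael and of 0.15 and 0.03 for Asz1. Tdrd7, at 0.22 ± 0.41 (adjusted p = 0.831, 95% interval -0.67 to 1.11), was the one member with a value above 0. The members thus ordered from Piwil4 at the top of the XY excess to Tdrd7 at its end, and neighbours such as Tdrd5 and Tdrd1, or Gtsf1 and Piwil2, differed by less than their standard errors.

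**Figure D3:**
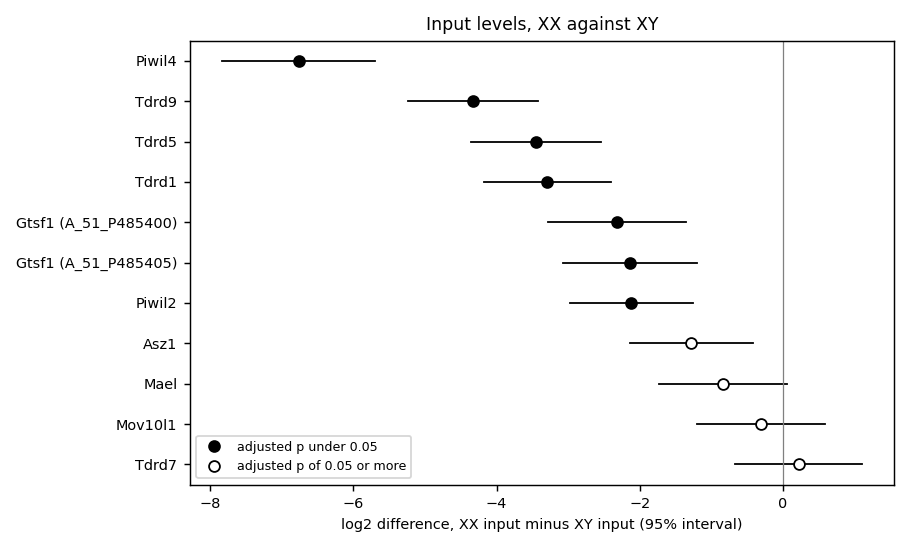
Log2 difference between XX and XY inputs for the 11 tested probes, ordered by size, with 95% intervals and filled symbols at an adjusted p under 0.05. The 7 filled symbols run from -6.77 for Piwil4 to -2.12 for Piwil2, and the 4 open ones are Asz1, Mael, Mov10l1 and Tdrd7.

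Cell type markers also differed between the inputs. Of 6 germ cell markers, Dppa3 and Pou5f1 were lower in XX (-4.18 and -3.70, adjusted p = 0.000144 and 0.00472), and Nanos3, not above background in the XX inputs, was at least 9.09-fold higher in XY (adjusted p = 6.03e-05). Ddx4 and Kit gave -0.19 and -0.37 (adjusted p = 0.846 and 0.697). Of the Dazl probes, the brighter gave 1.22 (adjusted p = 0.0671) and the dimmer was 2.91-fold higher in XX (1.54, adjusted p = 0.0224). The summed level of all 6 markers, given above, was higher in the XY than in the XX inputs. Bright probes dominate this sum, and Dppa3 averaged 1.81 in the XX and 5.99 in the XY inputs. With Dazl lying the other way, the sum gives no common direction of germ cell signal. The 4 meiotic markers, Stra8, Sycp3, Rec8 and Dmc1, summed to 153 and 163 in XX and to 5.46 and 6.18 in XY, with Dmc1 not above background in XY. The Sertoli markers Sox9, Amh and Dhh summed to 0.778 and 0.92 in XX, where Amh and Dhh were not above background, and to 26.4 and 30.6 in XY. The Leydig markers Star, Cyp11a1 and Cyp17a1 summed to 0.645 and 1.73 in XX and to 42.7 and 39.2 in XY. The ovarian supporting markers summed to 12.4 and 10.3 in XX and to 1.71 and 1.53 in XY, with Fst at least 59.1-fold higher in XX (adjusted p = 1.6e-05) and Foxl2 not above background in any group. The part of these marker differences in the lower XX levels of the 6 members was not tested.

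Since 6 members were lower together in the XX inputs, the starts of the members were searched for an E-box and an E2F-type motif. Both motifs were chosen by name and did not come from a search for shared letters. The matches of the E-box are shown. Promoters, here from 250 bases before to 50 bases after a start (RefSeq, GRCm38.p6), were at hand for 9 members with 14 starts. The entry for Piwil2 was missing. The E-box CACGTG, which reads the same on both strands, was found in the promoters of 4 members, with 5 of 14 starts, of which 2 of Tdrd1 overlap. It occurs in 7.15% of the 32851 promoters in the table, a share per promoter and not per gene. The E-box holds a CpG, and the member promoters had a higher median CpG count, given below. No comparison at a like CpG count was made. The E2F-type letters GCGGGAA or their complement were found in 1 member, Tdrd5, and in 4.6% of all promoters. Each E-box is printed 5′ to 3′ in the direction of the gene, with the match in capitals.
Mael (chr1:166238950-166238979, minus strand): taccaggcctacCACGTGacaatccccgcc
Tdrd1 (chr19:56826186-56826215, plus strand): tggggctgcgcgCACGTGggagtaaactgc
Tdrd9, distal (chr12:111971382-111971411, plus strand): ggtctccataaaCACGTGcctgtccaggtc
Tdrd9, proximal (chr12:111971452-111971481, plus strand): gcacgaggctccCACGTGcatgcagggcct
Mov10l1 (chr15:88982744-88982773, plus strand): ccttCACGTGctaaccgccaacctctcgtg
The E-box of Tdrd1 lay 8 and 74 bases upstream of its overlapping starts, those of Tdrd9 lay 162 and 92 bases upstream, and those of Mael and Mov10l1 lay 220 and 243 bases upstream. Of these genes, Tdrd1 and Tdrd9 were called lower in the XX inputs and Mael and Mov10l1 were not called. Piwil4, Tdrd5 and Gtsf1, also lower in XX, had no E-box in this window. The number of CpG dinucleotides per promoter ran from 0 to 48 with a median of 18.5, against a median of 7 over all promoters, and the most were in Tdrd5.

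Over the 8 arrays the members above background throughout fell into different courses. These correlations are descriptions over 8 arrays that share 4 group means, so they mostly repeat the group differences above. Tdrd1 and Tdrd5 ran together (r = 0.994), and Piwil2 with each of them (r = 0.981 and 0.968). Mael ran with the probes of Gtsf1 (r = 0.92 and 0.903) and not with Piwil2 (r = 0.025). Tdrd7 ran apart from Mael (r = -0.673). Among 3940 probes of genes outside the list, those most like Piwil2 were G2e3 (r = 0.984), Cers6 (r = 0.982) and Pmaip1 (r = 0.981). Like Piwil2 they stood lowest in the XX inputs and highest in the XY IPs, from 0.12 to 4.88 for G2e3, from 2.37 to 5.72 for Cers6 and from -0.68 to 7.40 for Pmaip1.

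Of 23 other genes of the pathway, 20 were on the array with 30 probes, and 22 probes of 17 genes were tested. In XX 5 of these probes were called higher in the IP and 0 lower (14.1% and 9.89% of all tested probes), and in XY 3 were called higher and 0 lower (10.2% and 7.67%). Over the 12 probes measured on both sides in XX and the 17 in XY, the median log2 difference was 1.09 and 0.84. The other 10 and 5 probes were not above background in at least 1 of the groups compared. Of the 5 in XX, Dnmt3l and the called probe of Henmt1 were not above background in either XX group and have no fold. Tex19.1, a germ cell gene that restrains retrotransposons, was the most enriched, with 4.04 and 4.22 in the XX inputs, 8.50 and 9.53 in the XX IPs, 5.54 and 5.80 in the XY inputs and 10.1 and 10.9 in the XY IPs. It was 29.5-fold higher in XX (adjusted p = 6.06e-05) and 29.1-fold higher in XY (adjusted p = 4.6e-05), so both exceeded the folds of Tdrd5. Pld6, the mitochondrial nuclease of piRNA biogenesis, was 7.75-fold (adjusted p = 0.000288) and 7.84-fold higher (adjusted p = 0.000396). The brighter probe of Fkbp6, a co-chaperone of the pathway, was 4.02-fold (adjusted p = 0.00279) and 5.59-fold higher (adjusted p = 0.00118), while its dimmer probe was 1.83-fold (adjusted p = 0.131) and 3.03-fold higher (adjusted p = 0.0153). Stk31 (3.86-fold and 3.93-fold, adjusted p = 0.00148 and 0.00192) and the RNA helicase gene Ddx4 (3.76-fold and 3.43-fold, adjusted p = 0.00191 and 0.00386) stayed under 4-fold. Morc1 in XY was 2.90-fold lower in the IP (adjusted p = 0.00766), and Gpat2, above background on all 8 arrays, was 2.70-fold lower in XX (adjusted p = 0.0126) and 2.74-fold lower in XY (adjusted p = 0.0145), both under 4-fold.

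Between the inputs, 4 of the 22 probes were lower and 1 higher in XX, against 6.1% and 5.87% of all tested probes. Dnmt3l, the cofactor of DNA methylation in prospermatogonia, was not above background in the XX inputs and read 4.13 and 4.10 in the XY inputs, at least 135-fold higher (adjusted p = 1.42e-06). Morc1, which acts in transposon silencing in male germ cells, was 55-fold lower in XX (adjusted p = 4.42e-06), from -2.85 and -2.65 to 3.05 and 3.02, with 1 of its 2 XX input arrays above background. A second probe of Morc1 was not above background in any group. Exd1 (3.77-fold, adjusted p = 0.0144) and 1 probe of Henmt1 (at least 5.32-fold, adjusted p = 0.000143) were also lower in XX, while the other tested probe of Henmt1 gave -0.43 (adjusted p = 0.726). Rnf17 was at least 2.40-fold higher (adjusted p = 0.0137). The enrichment of 1 probe, that of Morc1, differed between the sexes (3.00, adjusted p = 0.0136), but its XX IP was not above background.

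The calls of enrichment depended on how the arrays were brought to a common scale. With the 50th percentile in place of the 75th, the median of all tested probes moved from 0.09 to -1.92 in XX and from -0.03 to -1.90 in XY. The members then had 0 calls higher and 5 lower in XX, and 0 higher and 4 lower in XY. The shares of all tested probes called under this scaling are not given here, so these counts show nothing particular to the members. Relative to the median of all tested probes the members did not move, with a median of 1.14 in XX and 1.01 in XY under both percentiles, because these shift all probes alike. With normexp background correction the median of the members relative to all probes was 0.17 in XX and -0.56 in XY (-0.81 with outlying local backgrounds replaced), and 2 of the 11 probes then lay above the median in XY. Measured this way, Tdrd1 and Tdrd5 lay above the median in both sexes under each of 8 ways of processing, 4 of which (the percentile scalings and the authors' table) give the same values apart from rounding by construction, by 0.31 to 2.81 and 0.73 to 2.85 in XX and by 0.25 to 2.65 and 1.33 to 3.87 in XY. Piwil2 lay above it under all 8 in XX (0.50 to 2.68) and under 6 in XY, where normexp put it below (lowest value -0.10). Mael and both Gtsf1 probes lay below the median under all 8 in both sexes. Tdrd7 turned below the median with normexp in XX (-0.36) and in XY (-0.66), and Piwil4 and Asz1 did so in XY (-0.99 and -0.27). Tdrd9 in XY went from 0.06 above the median to as low as -1.62 with normexp, where its log2 difference of -1.70 passed the adjusted p (0.000835) with outlying backgrounds replaced. Of the members whose XX input was called lower, Piwil4 and Tdrd9 were called also with the 50th percentile, with normexp and with a common floor.

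**Figure D4:**
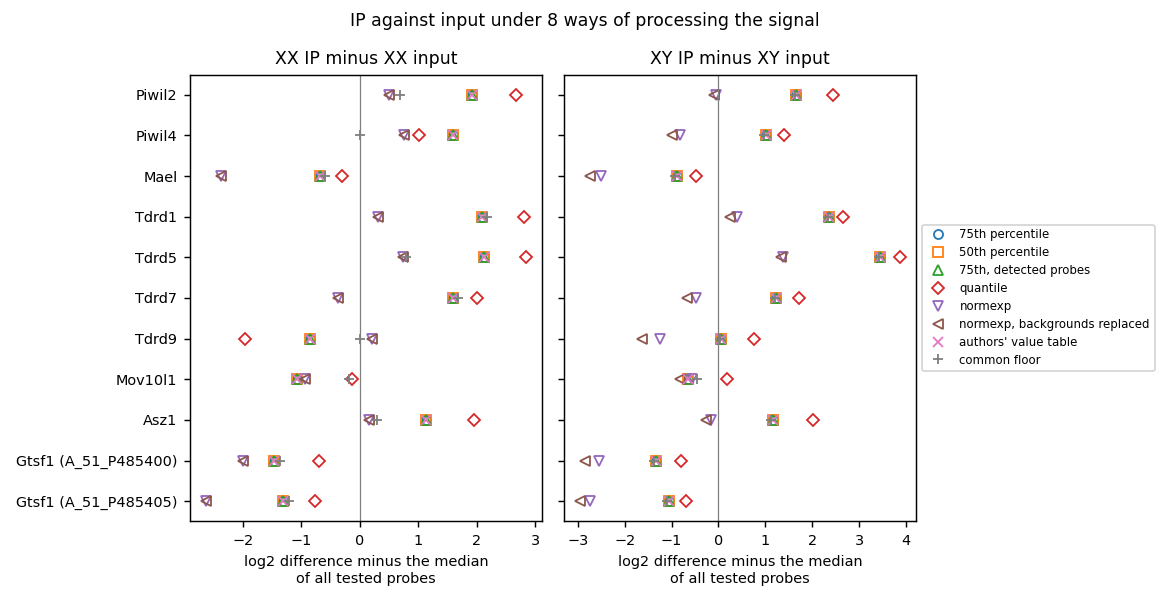
Log2 difference between IP and input of the 11 tested probes, less the median of all tested probes, under 8 ways of processing the signal in XX and in XY. The percentile scalings and the authors' table coincide by construction. Tdrd1 and Tdrd5 stay right of 0 and Mael and Gtsf1 left of 0, while Tdrd7 crosses 0 with normexp.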

How the data were processed

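RNA from 8 samples was hybridized by the authors to 1-colour Agilent whole mouse genome arrays, and the deposited scanner files hold a background-subtracted and processed signal intensity per spot from Feature Extraction (9.5.3.1 in the file headers, 9.5 per the labels). The antibody dilution is given as 1:200 in the labels, while the methods of the study give another. The authors also deposited a table of log2 values, which was used as an alternative. Probe positions are on mm8 per the file headers, and exon or intron is not given because no annotation of that build was used. Promoters are on another build, and no positions were converted.

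Control spots and 73 probes with outlier flags were left out of 41174, spots of a probe were averaged, intensities were floored at 1, and log2 values were taken relative to the 75th percentile of each array. The fit covered 18265 probes that rose well above background on both arrays of some group, and used limma 3.58.1 under R 4.3.3 (lmFit and eBayes, 1 mean per group, 4 residual degrees of freedom and 7.83 prior ones), with two-sided tests and Benjamini-Hochberg adjustment over all of them. IP calls also needed 4-fold. The fit was tested on simulated data. "At least" folds compare the bright mean with the lowest signal well above background. Probes were named by accession, then by symbol, against RefSeq (23440 by accession, 6669 by symbol, 2882 by an older symbol, 8110 unnamed). All probes of the members are described. Other pathway genes were given values for IP against input where the difference was among the 6 largest with the brightest probe measured on all 4 arrays of a sex, and Gpat2 and those named between inputs, for sex difference or as not above background were added after their values were seen. The genes most like Piwil2 were the 3 with the highest r. The members and lists were chosen with earlier results of these data known. Alternatives covered scaling, background correction, floor, filter, design, test and each array left out. Figures were drawn with matplotlib in Python.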

Additional observations from a re-analysis of the deposited data

How the results depend on the processing

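The count of member probes called in each comparison, out of 11, was recomputed under each alternative. The shares of all tested probes called under the alternatives are not given here, so the counts show only how the calls moved. Probes higher in the XX IP (3) numbered 0 with 50th percentile scaling, with the 75th percentile of probes detected on all arrays, with normexp with or without outlying backgrounds replaced, and in a two-sample test without moderated variances, 1 with a common floor and 6 of all 15 probes without a filter on dim probes. Probes higher in the XY IP (2) numbered 0 with 50th percentile scaling, both normexp settings and the two-sample test, 1 with quantile normalization and with the 75th percentile of detected probes, and 4 of 15 without the filter. Probes lower in the XX IP (0) numbered 1 with quantile normalization, 5 with 50th percentile scaling and 3 with either normexp setting, and probes lower in the XY IP (0) numbered 4 and 3 with the latter. Probes differing in enrichment (0) numbered 1 with quantile normalization, where Tdrd9 gave -2.73, and 1 with normexp with backgrounds replaced, where it gave 1.91 (1.51 with plain normexp). Its XX IP arrays were not above background. Probes differing between inputs (7, of 6 members) numbered 4 with 50th percentile scaling and with a common floor, 2 with plain normexp and 8 with normexp with backgrounds replaced. Leaving out each array in turn, the count higher in the XX IP ran from 0, without the second XX IP array, to 4, without the first, and the other counts stayed within 1.5 times. The cause of these moves was not tested.

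Of the differences of single members (leading probes, with the sex difference followed for Piwil2, Tdrd5, Tdrd7 and Tdrd9), 30 turned their sign, in no case for one called in the main setting. Sex differences of other members, none of them called, also turned under some scalings, such as Piwil4 (0.71, quantile -0.40, common floor -0.98). With 50th percentile scaling, Piwil4 (-0.32), Tdrd7 (-0.33) and Asz1 (-0.78) turned in XX, and Piwil2 (-0.24), Piwil4 (-0.89), Tdrd7 (-0.67), Tdrd9 (-1.84) and Asz1 (-0.75) in XY. With the 75th percentile of detected probes Tdrd9 gave -0.30 in XY. With normexp, Tdrd7 (-0.37) and Tdrd9 (0.21) turned in XX with and without replaced backgrounds. In XY, Piwil2 (-0.11, replaced -0.18), Piwil4 (-0.87, -1.07), Tdrd7 (-0.53, -0.74), Tdrd9 (-1.31, -1.70) and Asz1 (-0.21, -0.35) turned, and between inputs Mael (0.12) and Mov10l1 (0.28) with plain normexp. With a common floor the sex difference of Piwil2 was -0.94. Without the second XY input or second XY IP array, Tdrd9 in XY was -0.067 and -0.045.

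The labels number the replicates 1 and 2 in each group, but nothing says that a number marks a shared lot, and the deviations of same-numbered arrays correlated by 0.07 (XX), 0.09 (XY), 0.28 (inputs) and 0.44 (IPs) with 2 pairs each. With a replicate block the counts were 3, 0, 2, 0, 0 and 8, the last by adding Asz1 between inputs (adjusted p = 0.0376). With the two-sample test at an unadjusted p, added after seeing the data, Mael and Asz1 passed between inputs as well. Slide as a block was not run, because slide is nested in sex, and the settings limited to the groups compared give no sex difference. Signal over background limits Piwil4, Tdrd9 and Mov10l1 in the XX IP.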
